A study of Homo sapiens with 6 samples.

Results

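The genes described here are the 49 genes of DNA replication and nucleotide synthesis that a list of symbols sets out. They are the proteins that license and unwind replication origins, copy the strands, supply deoxynucleotides and assemble new chromatin, with the regulators of entry into S phase. They were found by symbol in the deposited gene table of 18268 rows. All 49 had a row, 44 of them alone and 5 within a row that joins the symbols of overlapping or neighbouring genes (POLA2 with CDC42EP2, PRIM1 with NACA, POLD1 with SPIB, FEN1 with FADS2, and CHAF1B with MORC3 and DOP1B). The value of a joined row cannot be credited to 1 of its genes.

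Total RNA was sequenced from MIA PaCa-2 cells, an established line derived from a human pancreatic cancer. The 6 libraries were 3 with the genotype LINC00901 KO, a knockout of a long non-coding RNA gene (KO 1 to 3), and 3 of vector control cells, labelled LCV2 (vector control 1 to 3). Cells of both groups were grown in DMEM with fetal bovine serum and horse serum. The labels do not give the knockout agent, whether a group was 1 clone or a pool, or whether libraries came from separate cultures or days, so p-values measure the spread between these libraries, which may be technical.

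Cells build the machinery of DNA replication ahead of each round of copying. Origin recognition proteins, CDC6 and CDT1 load the MCM helicase in G1, and CDC45 and the GINS complex turn it on at the start of S phase. Polymerases alpha, delta and epsilon then copy the strands around the PCNA clamp. Many of these genes are textbook targets of the E2F transcription factors, so their transcripts follow the share of cells that are entering or passing through S phase. In bulk RNA, fewer cells in that phase and less RNA per cell cannot be told apart.

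Values are FPKM, in which the fragments of a row are divided by its length and by the size of the library, and they summed to between 123107 and 134389 per library. No row named LINC00901, so the knockout was not checked in these values and each direction rests on the labels. Of the epithelial and mesenchymal markers of the line, VIM (459.52 to 674.80 FPKM) and KRT18 (28.78 to 79.42) were abundant. KRT19 stood between 12.69 and 39.34 FPKM and the joined row of KRT8 and KRT78 between 7.23 and 19.76. For KRT18 and KRT8 the groups did not overlap and KO was lower, with no call (limma adjusted p = 0.147 and 0.145). Such a gap with KO lower was seen for 8.35% of tested rows. KRT7 (at most 0.11), EPCAM (at most 0.14) and CDH1 (at most 0.02) were low, and EPCAM and CDH1 were listed at 0 in 4 libraries each. An exact 0 need not mean absence, since the 13 mitochondrial rows of the table, genes that every cell uses, were also listed at 0. PTPRC, CD3E and DCN, which mark leukocytes and fibroblasts, were listed at 0 in every library, and PECAM1, which marks endothelium, reached at most 0.01. CDH5, another endothelial marker, was listed at 0.33, 0.17 and 0.14 FPKM in vector control 1, 2 and 3 and at 0 in KO 1, 2 and 3. LUM of the fibroblast list stood between 0.07 and 0.17 in the controls and at 0 in KO, and CD14 at 0, 0.40 and 0.68 in the controls and at 0 in KO. CD68 of the leukocyte list shares a row with EIF4A1 and SENP3. That row stood between 35.13 and 51.58 FPKM and cannot be credited to CD68. LYZ, also on the leukocyte list, was listed at 0 in the 3 vector controls and at 1.45, 1.83 and 1.20 FPKM in KO 1, 2 and 3 (limma adjusted p = 0.00799), and the part of these markers in other results was not tested. Of the collagen genes on the fibroblast list, COL1A2 stood between 24.72 and 56.18 FPKM and COL3A1 between 16.46 and 62.02. COL1A1 stood between 0.96 and 3.95. The groups did not overlap for COL1A2, higher in KO, and for COL3A1, lower in KO. Neither was called (limma adjusted p = 0.119 and 0.164). A gap with KO higher was seen for 15.4% of tested rows.

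The replication genes divided the libraries within each group more than between the groups. Together the 49 rows made up 0.807%, 0.465% and 0.472% of the FPKM sum in vector control 1, 2 and 3, and 0.385%, 0.749% and 0.742% in KO 1, 2 and 3. Vector control 1 thus lay beside KO 2 and KO 3, and KO 1 lay lowest, so the groups overlapped. Over the 9624 tested rows on the log2 scale, vector control 1 also lay nearer to KO 2 and KO 3. Its values correlated at 0.925 and 0.932 with KO 2 and KO 3 and at 0.904 and 0.906 with vector control 2 and 3. KO 1, in contrast, lay with its own group over these rows. It correlated at 0.9331 and 0.935 with KO 2 and KO 3 and at 0.9201 and 0.9205 with vector control 2 and 3. Rows are no independent replicates, so these values only describe the libraries. Replication-dependent histone rows, 65 in all, whose genes are transcribed during S phase, had shares of 6.26%, 2.82% and 3.28% in the vector controls and 3.02%, 5.20% and 5.24% in KO 1 to 3. Their high libraries were also vector control 1, KO 2 and KO 3. What sets these libraries apart was not tested, and the labels name no batch, day or density that could be set beside them.

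**Figure D1:**
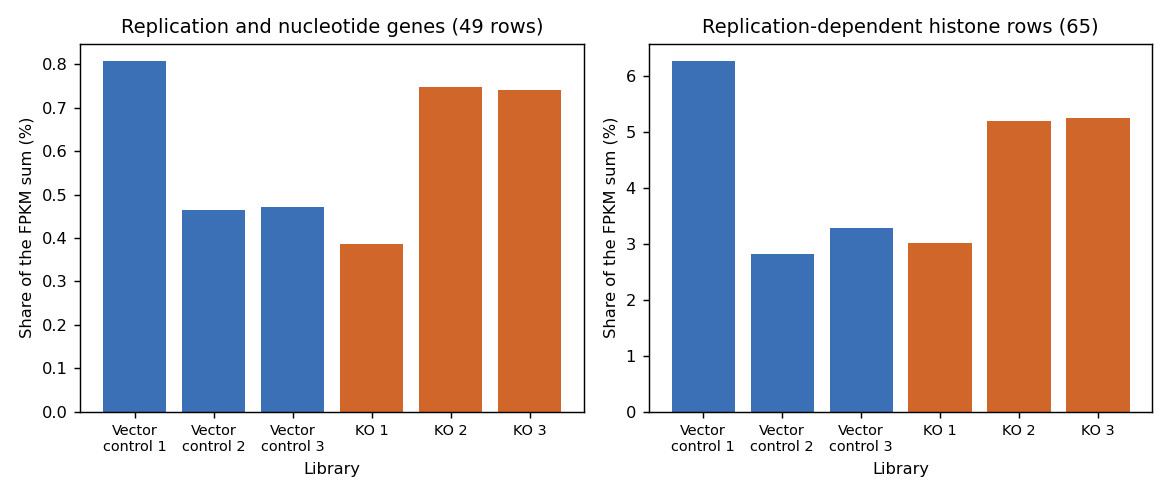
Share of each library's FPKM sum (percent, vertical axis) taken by the 49 replication and nucleotide rows (left) and by 65 replication-dependent histone rows (right), 1 bar per library, vector controls in blue and KO in orange. In both panels vector control 1, KO 2 and KO 3 are the high libraries, at 0.742% to 0.807% on the left and 5.20% to 6.26% on the right.

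PCNA, the sliding clamp that tethers polymerases to DNA, had the highest level of the members and shows the pattern most plainly. It stood at 187.91, 56.70 and 56.88 FPKM in vector control 1, 2 and 3 and at 44.99, 165.77 and 158.72 in KO 1, 2 and 3. The highest library of each group exceeded its lowest 3.31-fold among the vector controls and 3.68-fold among the KO libraries. The 2 group means, 100 ± 75.7 and 123 ± 67.8 FPKM (SD, n = 3 per group), differed by less than either SD.

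Counted gene by gene, vector control 1 was the highest vector control for 41 of the 49 members, or 83.7%, against 49.9% of the 9624 tested rows. KO 1 was the lowest KO library for 46 members (93.9%), against 41.8% of tested rows. Both held for 40 members (81.6%; 27.4% of tested rows). Vector control 1 was the highest of all 6 libraries for 28 members (57.1%; 23.4% of tested rows) and KO 1 the lowest for 36 (73.5%; 15.5% of tested rows). Over all 6, the 3 highest values were those of vector control 1, KO 2 and KO 3 for 36 members (73.5%; 19.4% of tested rows). These are counts of an order, with no test, and the members are not independent of each other.

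The exceptions are few enough to name. Vector control 1 was not the highest control for CDT1, GINS3, PRIM1, POLD1, POLD2, LIG1, RRM2 and CHAF1B, of which PRIM1, POLD1 and CHAF1B are joined rows. KO 1 was not the lowest KO library for PRIM1, POLD3 and CHAF1B. CDT1 was the clearest of them, and its values are given with the licensing genes.

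**Figure D2:**
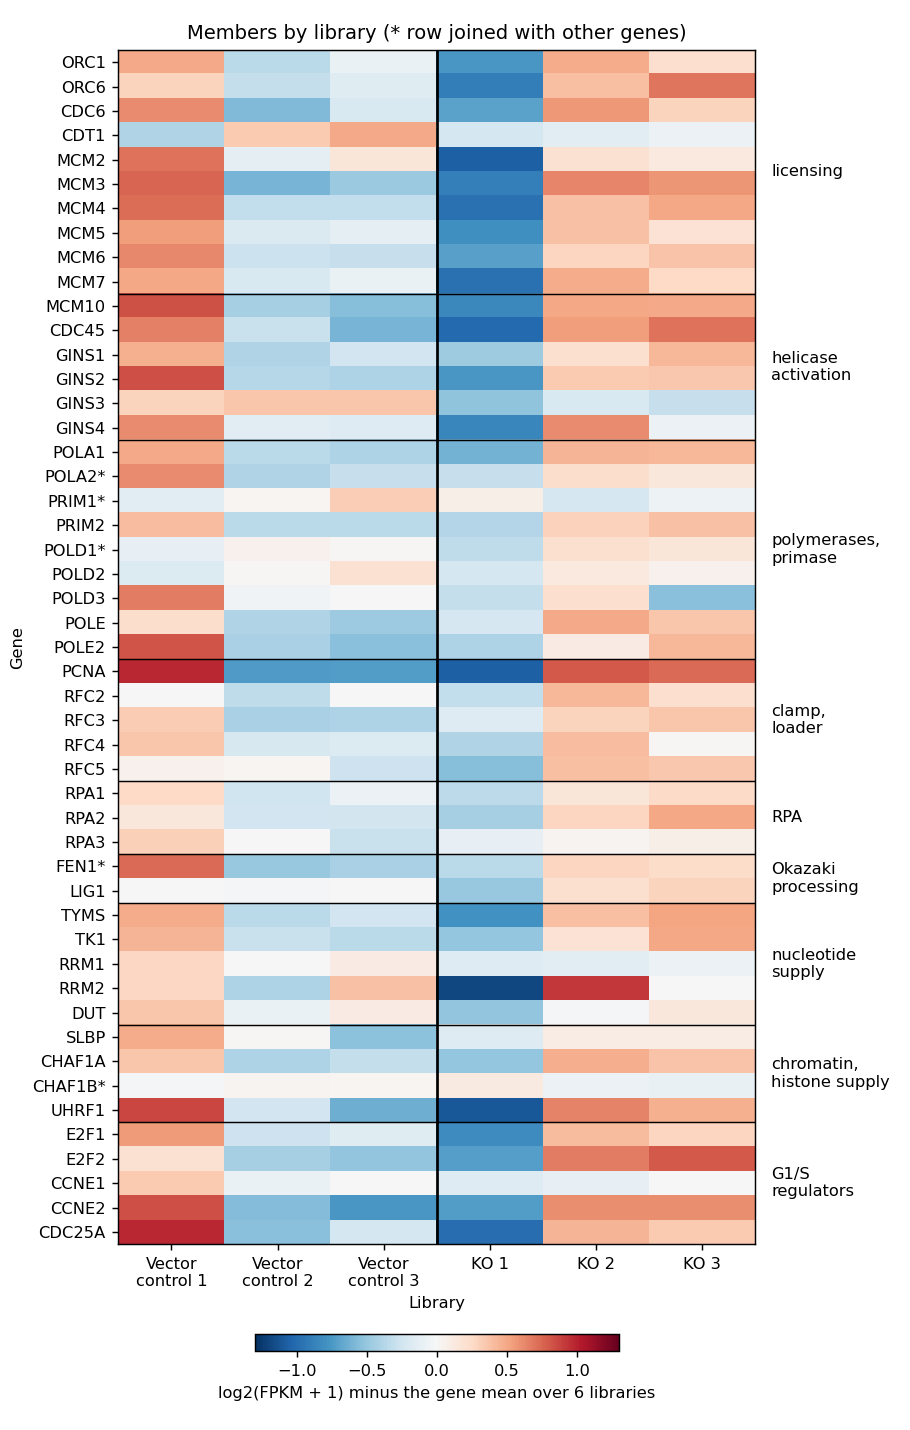
Each cell is log2(FPKM + 1) of 1 member in 1 library minus that gene's mean over the 6 libraries (color scale, log2), genes in rows by role, vector controls left and KO right of the black line. Most rows are red in vector control 1, KO 2 and KO 3 and blue in KO 1, with CDT1, GINS3 and the joined rows of PRIM1 and CHAF1B among those that differ.

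The spread within a group can be put on the log2(FPKM + 1) scale as the highest minus the lowest of its 3 libraries. Its median over the members was 0.79 among the vector controls and 0.95 among the KO libraries, against 0.46 and 0.36 over all tested rows. A range of at least 1 was seen for 14 members (28.6%) among the vector controls and 23 (46.9%) among the KO libraries, against 13.1% and 7.83% of tested rows. PCNA (1.71 and 1.86), UHRF1 (1.502 and 1.745) and CDC25A (1.52 and 1.43) had the widest ranges when the smaller of the 2 groups is taken. LIG1, CHAF1B and GINS3 had the narrowest by that measure, at 0.03, 0.04 and 0.07, each set by the vector controls.

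**Figure D3:**
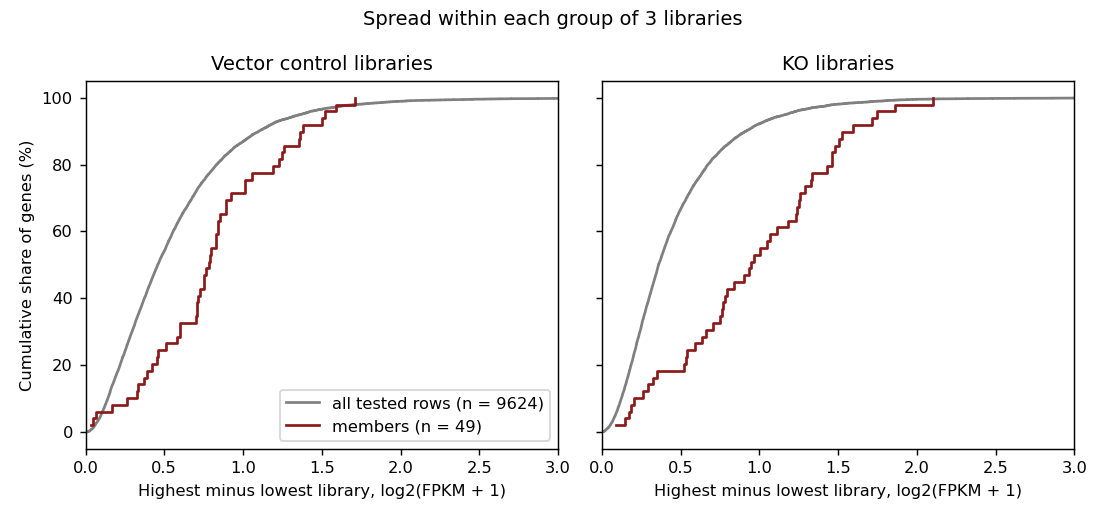
Cumulative share of genes (percent, vertical axis) by the highest minus the lowest of the 3 libraries of a group on the log2(FPKM + 1) scale (horizontal axis), for the 49 members in red and all 9624 tested rows in grey. The members' curve lies to the right of the grey curve over most of its course in both panels, with medians of 0.79 against 0.46 (vector control) and 0.95 against 0.36 (KO).

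Single pairs of libraries show where the spread lay. Vector control 1 exceeded vector control 2 by a median of 0.73 over the members and vector control 3 by 0.70, on the log2(FPKM + 1) scale, while all tested rows had medians of 0.08 and 0.07. Vector control 2 and 3 differed by a median of -0.04. KO 2 and KO 3 exceeded KO 1 by medians of 0.79 and 0.90 (0.01 and 0.02 over all tested rows), and KO 2 differed from KO 3 by 0.01. Across the groups, KO 1 lay below vector control 2 and 3 by medians of -0.28 and -0.32, and the medians of KO 2 and KO 3 minus vector control 1 were -0.11 and -0.24. Other pairs across the groups differed as much as pairs within them: KO 1 minus vector control 1 had a median of -0.95 (3 of 49 members above 0), KO 2 minus vector control 2 of 0.64 (43 of 49) and KO 3 minus vector control 3 of 0.57 (40 of 49). Over all tested rows the medians of these pairs lay between 0.02 and 0.11.

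The start regions of the members with the widest and the narrowest ranges are shown because the E2F family, which reads a short GC-rich element, is the textbook regulator of these genes. Each is the 250 bases before the RefSeq gene start (GRCh38.p14), 5′ to 3′ on the gene's strand, with matches to the searched motifs in capitals. The FPKM were made on hg19, so these coordinates belong to the sequences and not to the values. The first 3 are the members with the widest ranges, by the smaller of the 2 groups, and the last 3 those with the narrowest. The range of CHAF1B is that of its joined row with MORC3 and DOP1B.
PCNA (chr20:5126623-5126872, minus strand): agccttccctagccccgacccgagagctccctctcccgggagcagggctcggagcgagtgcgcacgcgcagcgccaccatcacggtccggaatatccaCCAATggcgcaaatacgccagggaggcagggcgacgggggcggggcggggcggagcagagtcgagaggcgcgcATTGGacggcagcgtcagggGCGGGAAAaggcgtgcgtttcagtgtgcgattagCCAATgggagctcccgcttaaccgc
UHRF1 (chr19:4909251-4909500, plus strand): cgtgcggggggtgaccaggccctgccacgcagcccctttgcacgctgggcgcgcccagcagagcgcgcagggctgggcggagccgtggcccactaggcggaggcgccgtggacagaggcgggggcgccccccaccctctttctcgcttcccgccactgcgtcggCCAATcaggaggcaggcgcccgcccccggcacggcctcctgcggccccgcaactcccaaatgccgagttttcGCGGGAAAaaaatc
CDC25A (chr3:48188418-48188667, minus strand): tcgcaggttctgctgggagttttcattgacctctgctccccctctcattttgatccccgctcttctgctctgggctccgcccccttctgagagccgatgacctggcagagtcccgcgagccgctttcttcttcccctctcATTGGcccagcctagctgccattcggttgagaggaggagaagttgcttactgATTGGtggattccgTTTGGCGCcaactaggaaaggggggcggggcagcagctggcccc
LIG1 (chr19:48170345-48170594, minus strand): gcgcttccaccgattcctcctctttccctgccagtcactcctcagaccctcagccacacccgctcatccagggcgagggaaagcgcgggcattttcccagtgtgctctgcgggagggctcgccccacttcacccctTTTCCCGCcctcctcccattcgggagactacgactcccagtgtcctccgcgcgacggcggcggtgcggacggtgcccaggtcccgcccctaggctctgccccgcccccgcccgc
CHAF1B (chr21:36385142-36385391, plus strand): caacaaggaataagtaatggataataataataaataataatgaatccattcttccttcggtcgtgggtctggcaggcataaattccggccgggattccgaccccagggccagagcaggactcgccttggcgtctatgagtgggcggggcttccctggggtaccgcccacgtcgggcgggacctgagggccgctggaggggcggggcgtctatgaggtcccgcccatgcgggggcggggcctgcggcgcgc
GINS3 (chr16:58392221-58392470, plus strand): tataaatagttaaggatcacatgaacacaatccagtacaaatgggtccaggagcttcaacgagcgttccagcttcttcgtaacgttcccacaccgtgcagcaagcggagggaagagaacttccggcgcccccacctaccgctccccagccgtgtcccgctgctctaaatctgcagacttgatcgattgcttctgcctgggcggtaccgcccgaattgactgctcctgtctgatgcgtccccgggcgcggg

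The motifs were the E2F-type letters TTTCCCGC, TTTGGCGC, TTTCGCGC and TTTGCCGC, the CCAAT box CCAAT and the cell cycle homology type TTTGAA, searched on both strands in 300 bases (250 before and 50 after the start). Matches of different E2F-type letters can overlap, so a start region was counted once. The RefSeq table matched 42 members, and MCM4, MCM5, GINS4, POLD3, RPA2, RPA3 and CCNE2 were not matched. Of the 42, 21 (50%) held an E2F-type match, against 5.81% of the 8480 matched start regions of tested genes and 3.31% of all 35116 start regions. CCAAT was in 23 (54.8%; 37.1% of tested genes) and TTTGAA in 1 (2.38%; 9.52%), RRM1. The match in GINS3 runs across the start and so is outside the bases shown.

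Members with an E2F-type match had median ranges of 0.89 (vector control) and 1.11 (KO) on the log2 scale, and the 21 matched members without one 0.58 and 0.75. Those without one include the joined rows of PRIM1, POLD1, FEN1 and CHAF1B, and those with one include that of POLA2. The range of a joined row may come from another of its genes, so these medians compare unlike rows. The letters did not sort the genes cleanly: LIG1 and GINS3 held a match and had narrow ranges in the vector controls. A match describes letters and is not evidence of binding.

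Between the groups, no member passed the test. limma on log2(FPKM + 1), with p-values adjusted by Benjamini-Hochberg over 9624 rows with at least 1 FPKM in at least 3 libraries, called 130 rows (1.35%) at an adjusted p below 0.05. It called 0 of the 49 members, all of which passed the filter. At an unadjusted p below 0.05 there was 1 member, GINS3, against 17.5% of tested rows. The median log2 fold change of the members was 0.02, with 28 above 0 (57.1%; 59.3% of tested rows) and 21 below, and that of all tested rows was 0.08.

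A missed threshold does not show that the groups were alike, and the intervals set out what could be seen. The 95% intervals of the log2 fold changes held 0 for 48 members and lay wholly between -1 and 1 for 28. For the other 21, the interval reached -1 or 1 on that log2(FPKM + 1) scale. The scale understates changes of low genes, so an interval within -1 to 1 does not exclude a 2-fold difference in FPKM for them. The bounds reached -1.37 for MCM2 and 1.81 for PCNA. The range within the vector controls exceeded the size of the log2 fold change for 48 members (74.3% of tested rows), GINS3 being the exception, and the range within the KO libraries did so for 46 (66.1% of tested rows).

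**Figure D4:**
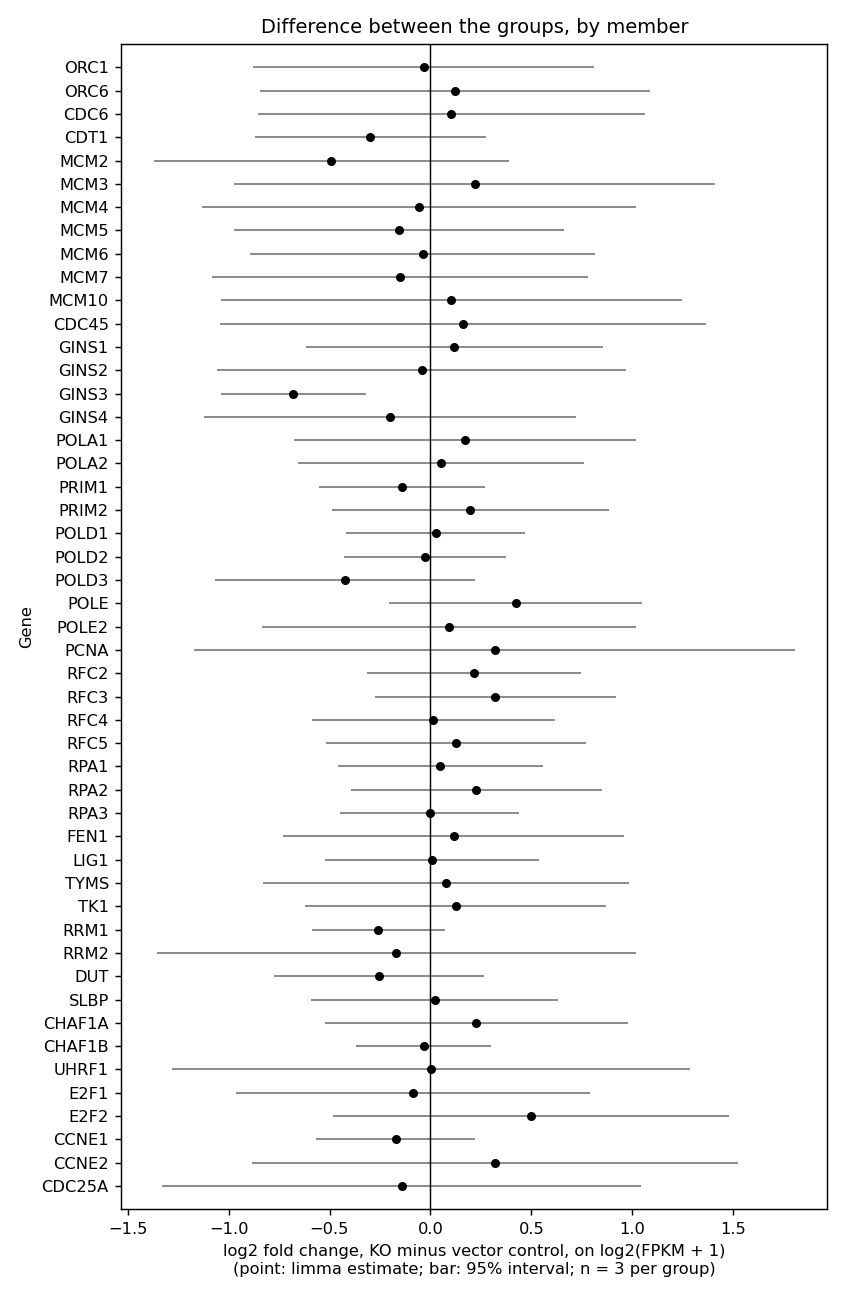
limma log2 fold change of each member (KO minus vector control on log2(FPKM + 1), horizontal axis) with its 95% interval, n = 3 libraries per group, 1 row per gene. Points lie between -0.68 (GINS3) and 0.50 (E2F2), and the interval of GINS3 alone does not reach 0.

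The groups did not overlap for 2 members, GINS3 and RRM1, both lower in KO (4.08%). Of tested rows, the groups did not overlap for 23.8%, with KO lower for 8.35% and KO higher for 15.4%. GINS3, a subunit of the GINS complex that joins CDC45 and MCM into the active helicase, stood at 6.90, 7.29 and 7.29 FPKM in control libraries 1 to 3 and at 3.48, 4.61 and 4.25 in KO 1 to 3. Its vector controls lay within 1.06-fold of each other, so vector control 1 did not stand apart for this gene. The log2 fold change was -0.68 (SE 0.15, 95% interval -1.04 to -0.32), with a limma adjusted p of 0.0990, which did not pass. It passed without vector control 1 (adjusted p = 0.0345) and with array weights (adjusted p = 0.00347), fits that called 13.8% and 41.8% of tested rows. It also passed at a threshold of 0.1, which 2.85% of tested rows passed. Over all 17 alternatives its adjusted p ran up to 0.351.

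RRM1, the large catalytic subunit of ribonucleotide reductase, stood at 48.98, 40.58 and 43.48 FPKM in control libraries 1 to 3 and at 35.78, 36.47 and 38.24 in KO 1 to 3. The groups were separate, but the lowest control and the highest KO library lay close together. The log2 fold change was -0.26 (SE 0.14, adjusted p = 0.382), and no alternative brought the adjusted p below 0.155.

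Licensing genes had levels that differed widely from gene to gene but shared an order of libraries. MCM4, a helicase subunit and the most abundant licensing gene, stood at 59.24, 28.01 and 28.01 FPKM in control libraries 1 to 3 and 17.47, 46.36 and 50.51 in KO 1 to 3. MCM3 stood at 40.48, 15.22 and 16.63 FPKM and 12.32, 37.28 and 35.66 in the same order. Its log2 fold change, 0.22 (SE 0.51), was the highest of the role and small beside ranges of 1.35 and 1.52.

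MCM2 had the lowest log2 fold change of the licensing genes, -0.49 (SE 0.37, adjusted p = 0.543). It stood at 40.37, 22.33 and 27.34 FPKM in control libraries 1 to 3 and 11.20, 28.14 and 26.74 in KO 1 to 3. Here KO 1 alone lay below all controls, and KO 2 and KO 3 lay among them. The group means of MCM4 were 38.4 ± 18.0 and 38.1 ± 18.0 FPKM and those of MCM6 38.4 ± 15.5 and 37.5 ± 13.7 (SD, n = 3 per group), so these helicase subunits had like means and wide spreads in both groups.

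MCM5, MCM6 and MCM7, the other helicase subunits, had their highest value in vector control 1 and their lowest in KO 1, with log2 fold changes of -0.16, -0.04 and -0.15. ORC1, which marks origins, ORC6 and the loading factor CDC6 had log2 fold changes of -0.03, 0.12 and 0.10. KO 1 was the lowest of all 6 libraries for each of these genes.

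CDT1, which brings the MCM ring to origins and is destroyed once S phase begins, did not follow the common order among the vector controls. It stood at 12.18, 21.01 and 23.44 FPKM in vector control 1, 2 and 3 and at 13.83, 14.66 and 15.45 in KO 1, 2 and 3. Vector control 1, the highest library for most members, was the lowest of all 6 here, and the KO libraries lay within 1.12-fold of each other. The log2 fold change was -0.30 (SE 0.24, adjusted p = 0.571) and became -0.57 (adjusted p = 0.0360) without vector control 1. It was also called with array weights (-0.50, adjusted p = 0.0150). These fits called 13.8% and 41.8% of all tested rows, and both drop or weigh down vector control 1, the low control of this gene.

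**Figure D5:**
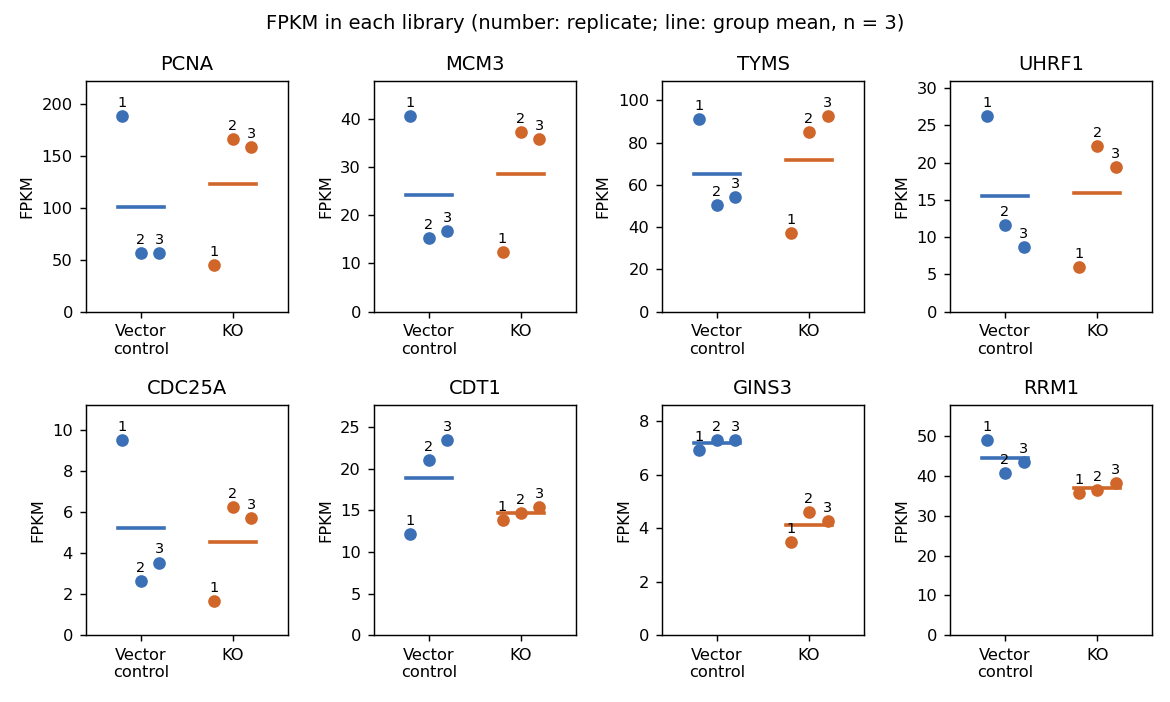
FPKM (vertical axis, from 0) of 8 members in each library, vector controls in blue and KO in orange, with the replicate number beside each point and the group mean as a line (n = 3 per group). PCNA, MCM3, TYMS, UHRF1 and CDC25A are high in vector control 1, KO 2 and KO 3, CDT1 is low in vector control 1, and GINS3 and RRM1 have groups that do not overlap.

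Among the helicase activators, GINS2 was the most abundant, at 15.16, 5.98 and 5.81 FPKM in control libraries 1 to 3 and 4.33, 10.46 and 10.51 in KO 1 to 3 (log2 fold change -0.04, SE 0.43). CDC45, which rides with the MCM ring at the fork, stood at 7.54, 3.45 and 2.57 FPKM and 1.70, 6.92 and 7.88 in the same order (0.16, SE 0.51). For both, KO 1 was the lowest library of all. MCM10, which helps to activate the helicase, spanned 3.12-fold in the vector controls and 3.18-fold among KO 1 to 3. GINS1 and GINS4 had log2 fold changes of 0.12 and -0.20. GINS3 was thus the 1 gene of its 4-subunit complex whose control libraries lay close together.

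The polymerase genes spread less than the licensing genes in KO 1 to 3, with a median range of 0.71 against 1.25. POLD2, an accessory subunit of polymerase delta and the most abundant of the role, stood at 15.04, 17.38 and 19.77 FPKM in control libraries 1 to 3 and 14.53, 18.80 and 17.90 in KO 1 to 3 (log2 fold change -0.03, SE 0.17). Its 95% interval, -0.43 to 0.38, was among the narrower ones. POLE, the catalytic subunit of the leading-strand polymerase epsilon, stood at 6.57, 3.92 and 3.66 FPKM and 4.55, 8.07 and 7.29 (0.42, SE 0.27, adjusted p = 0.455).

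POLD3, another delta subunit, stood at 7.00, 3.89 and 4.06 FPKM in control libraries 1 to 3 and 3.07, 4.86 and 2.45 in KO 1 to 3 (log2 fold change -0.42, SE 0.27, adjusted p = 0.466). KO 3, a high library for most members, was the lowest of all here. POLA1, the catalytic subunit of the polymerase alpha that starts each strand, and the primase subunit PRIM2 followed the common order, with log2 fold changes of 0.17 and 0.20. POLE2 spanned 3.12-fold in the vector controls. The joined rows of POLA2, PRIM1 and POLD1 had log2 fold changes of 0.05, -0.14 and 0.03.

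All 5 clamp and clamp loader genes had a log2 fold change above 0, from 0.01 for RFC4 to 0.32 for RFC3 and PCNA, and none passed. RFC4 did not keep that direction with median scaling (-0.07) or quantile normalization (-0.03). Nor did RFC4 keep it without vector control 2 (-0.09), vector control 3 (-0.07) or KO 2 (-0.18). PCNA did not keep it without KO 2 (-0.00102). RFC2 and RFC5 were not followed over the alternatives, so their direction there is not known. RFC3, a subunit of the loader that opens PCNA onto DNA, stood at 28.49, 16.54 and 16.79 FPKM in control libraries 1 to 3 and 19.91, 27.59 and 29.01 in KO 1 to 3 (SE 0.25, adjusted p = 0.556). RFC4 stood at 10.30, 6.57 and 6.77 FPKM and 5.67, 10.55 and 7.89. RFC2 and RFC5 spread little among the vector controls (1.28-fold and 1.29-fold) and more among the KO libraries (1.73-fold and 2.09-fold). For RFC2, KO 2 and KO 3 lay above every vector control, and KO 1 did not.

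Replication protein A, which coats single-stranded DNA, varied less than the clamp. RPA1, its large subunit, stood at 38.23, 26.55 and 30.22 FPKM in control libraries 1 to 3 and 25, 35.76 and 38.12 in KO 1 to 3 (log2 fold change 0.05, SE 0.22). RPA2 stood at 15.21, 11.37 and 11.42 FPKM and 9.84, 16.75 and 19.75 (0.23, SE 0.26). RPA3 stood at 11.63, 9.13 and 7.32 FPKM and 8.45, 9.43 and 9.73, with KO libraries within 1.15-fold of each other (-0.00312, SE 0.19).

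LIG1, the ligase that seals Okazaki fragments, was level in the vector controls at 2.62, 2.55 and 2.63 FPKM and ran from 1.57 in KO 1 to 3.17 and 3.42 in KO 2 and KO 3. Only the KO libraries spread for this gene (2.18-fold, against 1.03-fold in the controls), and the log2 fold change was 0.00736 (SE 0.23). The joined row of FEN1, the flap nuclease that trims those fragments, stood at 8.03, 2.86 and 3.04 FPKM and 3.24, 5.59 and 5.41 (0.12, SE 0.36).

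In nucleotide supply, TYMS, the thymidylate synthase, was the most abundant gene and the second of all members. It stood at 91.20, 50.52 and 54.29 FPKM in control libraries 1 to 3 and 37.21, 85.19 and 92.55 in KO 1 to 3 (log2 fold change 0.08, SE 0.39). TK1, the S phase thymidine kinase, stood at 40.54, 24.02 and 22.97 FPKM and 20.53, 33.75 and 42.17 (0.12, SE 0.32). Both put KO 3 first and KO 1 last.

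The 2 subunits of ribonucleotide reductase, the enzyme that makes deoxynucleotides from ribonucleotides, differed in how much they varied. RRM2, the small subunit whose level is known to change with the cell cycle, stood at 20.45, 12.46 and 22.22 FPKM in control libraries 1 to 3 and 6.84, 32.64 and 16.90 in KO 1 to 3. Its KO range, 2.10, was the widest of any member on the log2(FPKM + 1) scale, and KO 2 and KO 3 were themselves far apart. In FPKM its KO libraries spread 4.77-fold, less than the 6.83-fold of CCNE2, a gene at low levels. RRM1 had a KO range of 0.09. DUT, which removes dUTP, stood lowest of the role, between 2.06 FPKM in KO 1 and 4.61 in vector control 1 (log2 fold change -0.25).

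Among chromatin genes, SLBP, the protein that binds the stem-loop of histone mRNA, stood at 38.59, 27.71 and 18.60 FPKM in control libraries 1 to 3 and 24.33, 29.42 and 29.26 in KO 1 to 3 (log2 fold change 0.02, SE 0.26). Its controls spread 2.07-fold and its KO libraries 1.21-fold. CHAF1A, the large subunit of chromatin assembly factor 1, stood at 5.62, 2.89 and 3.16 FPKM and 2.64, 6.12 and 5.64 (0.23, SE 0.32). The joined row of its partner CHAF1B was nearly level, at 6.31, 6.54 and 6.51 FPKM and 6.96, 6.01 and 5.91 (-0.03, SE 0.14).

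UHRF1, which brings the maintenance methyltransferase to newly copied DNA, had one of the widest spreads, at 26.21, 11.56 and 8.61 FPKM in control libraries 1 to 3 and 5.94, 22.26 and 19.44 in KO 1 to 3. Its group means were 15.5 ± 9.43 and 15.9 ± 8.72 FPKM (SD, n = 3 per group). The log2 fold change was 0.00222 with a 95% interval of -1.28 to 1.29, so a difference of 2-fold in either direction could not be told from none.

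The regulators of S phase entry included the steepest folds. E2F1, an activator of the genes described here, stood at 9.83, 5.11 and 5.61 FPKM in control libraries 1 to 3 and 3.18, 8.84 and 7.93 in KO 1 to 3 (log2 fold change -0.08, SE 0.37). E2F2, a close relative, stood at 2.98, 1.56 and 1.43 FPKM and 1.11, 4.51 and 5, which gave the highest log2 fold change of all members (0.50, SE 0.42, adjusted p = 0.580). For E2F2, KO 2 and KO 3 exceeded every control while KO 1 lay below every control.

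The 2 E-type cyclins, partners of CDK2 at the start of S phase, behaved unlike each other. CCNE1 stood at 8.51, 6.09 and 6.55 FPKM in control libraries 1 to 3 and 5.71, 6 and 6.57 in KO 1 to 3 (log2 fold change -0.17, SE 0.17), within 1.40-fold and 1.15-fold. CCNE2 stood at 2.98, 0.51 and 0.32 FPKM and 0.35, 2.39 and 2.38, a spread of 9.31-fold among the controls and 6.83-fold among the KO libraries at low levels. CDC25A, the phosphatase that activates CDK2, stood at 9.52, 2.67 and 3.55 FPKM and 1.68, 6.23 and 5.74 (-0.14, SE 0.50).

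Other genes of these pathways, from lists chosen by name, added 1 call among replication genes. Of 16 further genes of the fork and of strand synthesis, TOP1 was called and was lower in KO, and the other 15 were not called. The same fit called 1.35% of all tested rows, so this 1 call is no result about the lists as sets. TOP1, the topoisomerase that relieves supercoils ahead of the fork, was at 54.46, 45.07 and 44.63 FPKM in vector control 1, 2 and 3. It fell to 19.88, 24.67 and 23.57 in KO 1, 2 and 3, a log2 fold change of -1.05 (SE 0.16, limma adjusted p = 0.0293). The groups did not overlap, and vector control 1 stood only modestly above the other controls. The call was lost with the replicate number as a block (adjusted p = 0.219) and without any 1 of KO 1, KO 2, KO 3, vector control 2 and vector control 3 (adjusted p from 0.0595 to 0.152), with a log2 fold change that stayed between -1.11 and -0.96.

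No gene was called in the other lists of licensing, nucleotide supply, chromatin assembly, G1/S control and mitosis genes. The 16 further licensing and firing genes had a median log2 fold change of 0.18, from -0.34 for the kinase activator DBF4 to 0.60 for its kinase CDC7. The 26 further genes of nucleotide supply had a median of 0.01. The purine synthesis genes IMPDH1 (-0.52) and PPAT (-0.47) had the lowest log2 fold changes of that list (limma adjusted p = 0.215 and 0.218). Their groups did not overlap, which held for 6 of the 26 genes and for 23.8% of tested rows. Of these 6, SHMT1 was higher in KO (0.50, limma adjusted p = 0.167) and the others were lower.

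The 10 further chromatin assembly genes had a median of 0.08, with ASF1B, a histone chaperone, lowest at -0.97 (25.83, 20.34 and 20.59 FPKM against 5.49, 14.57 and 15.36, adjusted p = 0.235). The 19 tested G1/S control genes had a median of 0.10, from -0.43 for CKS1B to 0.55 for the E2F partner TFDP1. CDK6 was below the filter. Vector control 1 was the highest control for 16 of 16 further licensing genes, 15 of 16 fork genes, 19 of 26 nucleotide genes, 9 of 10 chromatin genes and 15 of 19 G1/S control genes, against 49.9% of tested rows. KO 1 was the lowest KO library for 14 (87.5%), 11 (68.8%), 11 (42.3%), 8 (80%) and 15 (78.9%) of them, against 41.8%. The share of the nucleotide genes, 42.3%, was thus near that of all tested rows.

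The order of libraries was also seen in cell cycle genes outside replication. Of 20 mitosis genes, KO 1 was the lowest KO library for 20 and vector control 1 the highest control for 14. Their medians were 0.31 for vector control 1 over 2 and 0.67 for KO 2 over KO 1, against 0.73 and 0.79 for the replication members. The mitosis genes thus differed by less than the replication members between the controls, a difference that was not tested. Of 54 tested histone rows, vector control 1 was the highest control for 46 and KO 1 the lowest KO library for 45. The test called 2 of the 54, both higher in KO (1.35% of all tested rows were called in either direction). HIST1H2AC stood at 13.26, 9.32 and 9.26 FPKM in control libraries 1 to 3 and at 30.57, 34.51 and 33.80 in KO 1 to 3, a log2 fold change of 1.56 (SE 0.18, limma adjusted p = 0.0111). HIST1H3F was listed at 0, 0 and 0.48 FPKM and at 3.03, 1.69 and 5.12 (limma adjusted p = 0.0455). Histone genes have near-identical copies, so their values depend on how shared reads were assigned.

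Weighting the libraries changed the member calls. With robust limma and array weights, which gave vector control 1 a weight of 0.151 and KO 1 a weight of 0.333 against 1.46 to 3 for the others, 21 members were called, 19 higher and 2 lower in KO. That is 42.9% of the members, against 41.8% of all tested rows called by the same fit. Higher calls made up 38.8% of members and 27% of tested rows, and lower calls 4.08% and 14.8%. PCNA was higher by 1.29 (adjusted p = 0.0165) and MCM3 by 0.98 (adjusted p = 0.0212) in that fit. The weights leave the result resting mostly on vector control 2 and 3 against KO 2 and KO 3, which differ in the common order of libraries as well as in genotype, so the 2 cannot be told apart there.

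Leaving out single libraries moved the median of the members as well. It was 0.27 without vector control 1, when 2 members were called (CDT1 and GINS3, both lower, 4.08%; 13.8% of tested rows were called and 5.07% were called lower), and 0.32 without KO 1, when 0 were called. Without each of the other libraries it lay between -0.10 and -0.07, again with 0 members called.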

How the data were processed

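The authors deposited 1 table of FPKM with a column for each of the 6 libraries, per the file headers. The tools named, per the submitters' processing notes, are cutadapt, FastQC and HISAT2, and the build is hg19. Tool versions, the FPKM program, the annotation and the strand setting were not given in the sources used here, so antisense reads may be included. Depth is unknown: the file holds no counts, and among rows between low bounds no ratio of 2 libraries was shared by more than 6.96% of rows, so no whole-read step was found.

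Groups came from the sample titles. Rows with at least 1 FPKM in at least 3 libraries (9624) were tested with limma 3.58.1 in R 4.3.3, with a mean-variance trend and two-sided, on log2(FPKM + 1), a scale that understates changes of low genes. Adjusted p-values are Benjamini-Hochberg over all tested rows, called below 0.05. The fit was also run on simulated data, with independent noise and a spread capped at the median of tested rows. That check does not cover the wider spread and common library order of most members. An exact permutation test of 3 against 3 libraries cannot go below p = 0.10 and was not used.

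The members and lists were chosen with earlier results of these data known. Values in every library are given for the most abundant gene of each role, for its highest and lowest log2 fold change, and for genes whose groups did not overlap. CDT1, RRM2, UHRF1, CCNE2 and CDC25A were added after their values were seen. From other lists, called genes and some of those with the highest or lowest fold changes are named, and some list genes are not reported here. Start regions came from RefSeq (GRCh38.p14). Alternatives were other pseudocounts, filters, scalings, variance models and thresholds, the replicate number as a block, and each library left out.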

Additional observations from a re-analysis of the deposited data

How the results depend on the processing

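The count of members called stayed at 0 under every alternative except array weights with robust limma (21), a threshold of 0.1 (1) and the fit without vector control 1 (2). Over the 6 fits that leave out 1 library it ran from 0 to 2. The count of all genes called, 130, became 241 with no filter, 59 with a filter at 5 FPKM, 4020 with array weights, 31 at a threshold of 0.01 and 274 at 0.1, and ran from 25 (without KO 3) to 1329 (without vector control 1) with 1 library left out. It was 29 without KO 2 and 39 without vector control 2 or vector control 3. Quantile normalization divided 130 calls into 31 higher and 99 lower, against 49 and 81. The median log2 fold change of the members was 0.468 with array weights and ran from -0.102 to 0.321 with 1 library left out. Of the further replication, nucleotide, cell cycle and mitosis genes, 49 were called with array weights, 0 at a threshold of 0.01, and from 0 to 8 with 1 library left out. Causes of these changes were not tested, except that fewer libraries or genes enter by construction where they are left out or filtered. The log2 fold changes of 26 members were followed over the 17 alternatives. Of the 439 values, 54, in 17 members, had the opposite sign to the reported value, and none of those 54 was called. Of these 17, MCM2 alone had a reported fold change larger than its SE. The replicate number as a block gave 7 genes called, 0 members and 0 of the further genes. Deviations from the group mean correlated across genes at -0.374, -0.153 and -0.264 for libraries sharing the number 1, 2 and 3. No library correlated best with its own number. These correlations carry the common order of libraries, so they cannot tell whether libraries with the same number share a day or culture. Depth is unknown, so the precision rests on 3 libraries per group and on the spread between them.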
